A study of Mus musculus with 9 samples.

Results

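The S100 family of small calcium-binding proteins was followed in the stromal vascular fraction (SVF) of mouse inguinal fat after wound repair priming. The list held 8 genes, S100a8, S100a9, S100a1, S100a4, S100a6, S100a10, S100a11 and S100a13. A probe set, the group of probes that together measure 1 transcript on the array, was taken for a gene where the platform annotation gave it that symbol and no other. By this rule 7 of the 8 genes were found, with 10 probe sets of 34945 probe sets that carried 1 symbol (18193 genes). The only probe set of S100a11 also carried the symbols Gm12854 and S100a11-ps, so no value was assigned to S100a11. The family was chosen with the day 1 and day 3 values in view, so the values of its members are a description and carry no test. The lists of related genes and cell type markers below were also chosen with earlier results of these data known. Their adjusted p-values come from the same arrays and are not independent support.

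SVF is what remains of digested fat once the lipid-filled adipocytes are removed, and it holds stromal progenitors, vessel cells and leukocytes. Arrays were made from 9 wild type Balb/c mice aged 10 weeks, 3 on day 0, 3 on day 1 and 3 on day 3, each mouse giving 1 SVF. In the study's methods priming of the male mice joined mincing of the fat with ligation of its feeding artery, whereas the labels name the injury and the day only. The study took day 0 as nonprimed, a word its methods use for sham-operated mice, whose skin was cut and sutured with the fat left intact, while the labels list day 0 under priming. Time, injury and ischemia cannot be told apart between days.

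S100 proteins pair into dimers, and most change shape when they bind calcium and then grip a partner protein. S100a8 and S100a9 form calprotectin, which is abundant in the cytosol of neutrophils and monocytes, holds zinc and manganese away from microbes, and acts outside the cell through Tlr4 and the receptor Ager (RAGE). The other members work mainly inside the cell, on annexins, myosin or calcium pumps.

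Most S100 genes stand side by side in the genome. In the RefSeq annotation of GRCm38.p6, 15 S100 genes lie on chromosome 3, in the order S100a1, S100a13, S100a14, S100a16, S100a3, S100a2, S100a4, S100a5, S100a6, S100a7a, S100a8, S100a9, S100a7l2, S100a11 and S100a10. S100a8 and S100a9 were thus direct neighbours, with S100a6 and S100a7a on one side. The promoters of this pair are shown because these 2 genes carried by far the largest changes of the family. Each line gives the 250 bases before the RefSeq start (GRCm38.p6) on the gene's own strand, 5′ to 3′, and capitals mark matches to the searched motifs.
S100a8, chr3:90668821-90669070, plus strand: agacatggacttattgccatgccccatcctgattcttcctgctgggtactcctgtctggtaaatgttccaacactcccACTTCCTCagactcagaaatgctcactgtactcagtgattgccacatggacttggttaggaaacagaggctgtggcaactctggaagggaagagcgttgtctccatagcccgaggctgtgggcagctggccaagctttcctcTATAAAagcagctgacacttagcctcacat
S100a9, chr3:90695722-90695971, minus strand: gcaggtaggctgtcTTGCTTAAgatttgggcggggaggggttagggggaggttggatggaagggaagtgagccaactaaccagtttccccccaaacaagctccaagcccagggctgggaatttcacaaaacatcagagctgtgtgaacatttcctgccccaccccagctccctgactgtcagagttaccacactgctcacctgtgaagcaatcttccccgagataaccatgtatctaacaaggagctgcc

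Motifs were searched as exact letters on both strands, and N stands for any base. The S100a8 promoter held TATAAA 30 bases before the start, a match held by 12.4% of all 32851 promoters of this length. It also held the PU.1 motif GAGGAAGT on the reverse strand, printed as ACTTCCTC, 172 bases before the start, a match in 2.44% of promoters. The S100a9 promoter held the C/EBP motif TTGCNNAA, printed as TTGCTTAA, 236 bases before the start, a match in 9.56% of promoters. No match was found in these 2 windows to TGANTCA (AP-1, 6.75% of promoters), TTCNNNGAA (STAT, 7.02%), the NF-kB motif (1.41%) or ACGTG (hypoxia response, 16.6%). These are matches of letters, and binding was not measured.

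MAS5 signals, a linear measure of probe set brightness, were compared across arrays within a probe set. Different probe sets were set together in choosing a gene's brightest, in shares of an array's brightest signal and in sums over markers. In such a sum the brightest markers weigh most. Present calls per array ranged from 24106 to 26299 (45101 probe sets), and 11796 genes were tested. The number of arrays limits the precision, and the spread is that between mice. The array of day 1 replicate 3 stood apart, in the S100 family and over all genes. It had 25557 present calls, against 24232 and 24106 in replicates 1 and 2 of that day. Among the 3 mice it was highest in 40.5% of all genes and lowest in 33.9%. Without it the share of all genes called on day 1 went from 28.6% to 38.6%. The members' day 1 changes are given with and without it. Markers of fibroblasts and progenitors were measured for 8 of 8 genes on every day. In bulk SVF, fewer cells of a type and less RNA per cell cannot be told apart.

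S100a8, a calcium-binding chain of calprotectin, had signals of 287, 416 and 354 in the 3 mice on day 0. On day 1 the signals were 31711, 32271 and 17203. On day 3 they were 6138, 9728 and 3624. The days did not overlap, with day 1 highest and day 0 lowest. The log2 change was 6.22 ± 0.32 (SE, n = 3 mice per day) on day 1, which is 74.7-fold, and 4.11 ± 0.32 or 17.2-fold on day 3. Without day 1 replicate 3 the day 1 change was 6.52. Between day 1 and day 3 the difference was -2.12 ± 0.32.

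S100a9, the partner chain, whose tail takes part in metal binding, had signals of 332, 505 and 355 on day 0. The signals were 33700, 30385 and 19195 on day 1 and 5644, 7713 and 3359 on day 3. Again no 2 days overlapped. The log2 change was 6.11 ± 0.29 on day 1, or 69.1-fold, and 3.75 ± 0.29 on day 3, or 13.5-fold, with a difference of -2.36 ± 0.29 between them. The day 1 change was 6.36 without day 1 replicate 3. On the day 1 arrays S100a9 reached 51.5% to 88.2% and S100a8 46.1% to 83.0% of the brightest signal of the array, so both were near the top of its range on that day. Whether the probes were saturated was not tested.

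Both calprotectin genes kept close to each other but not equally on every day. The log2 signal of S100a8, relative to its own mean on day 0, minus that of S100a9 was -0.05, -0.11 and 0.16 in the mice of day 0. It was 0.08, 0.25 and 0.01 on day 1 and 0.29, 0.50 and 0.27 on day 3. The day 3 values were above all those of days 0 and 1.

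**Figure D1:**
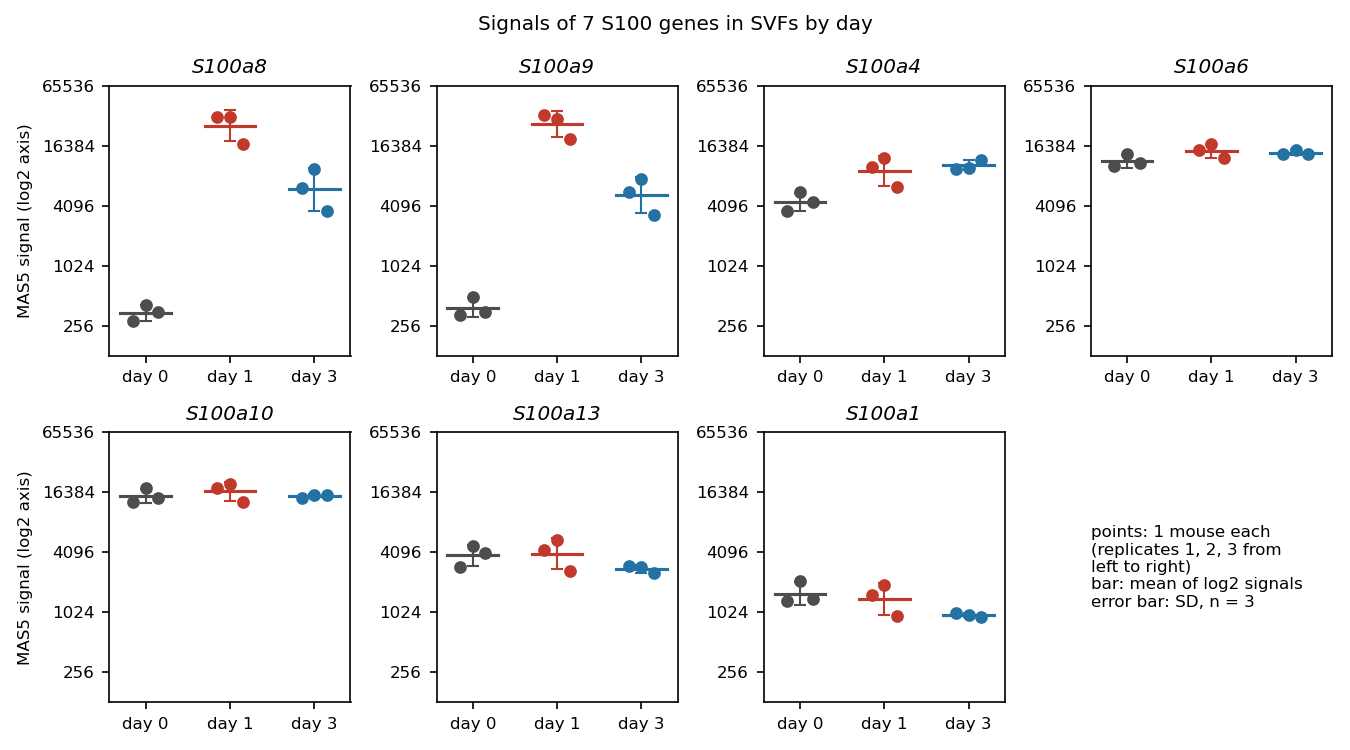
MAS5 signals (log2 axis) of the 7 measured S100 genes by day, 1 point per mouse, with bars at the mean of the log2 signals and error bars of 1 SD (n = 3). S100a8 and S100a9 had at most 505 in any mouse on day 0 and at least 17203 on day 1, while S100a6 and S100a10 stayed within a narrow band.

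S100a4, a protein of motile fibroblasts and macrophages that binds the myosin heavy chain Myh9, had signals of 3688, 5606 and 4487 on day 0. They were 10042, 12519 and 6309 on day 1 and 9639, 9930 and 11913 on day 3. Both later days lay above day 0 without overlap and overlapped each other. The log2 change was 1.03 ± 0.22 (2.04-fold) on day 1 and 1.21 ± 0.22 (2.31-fold) on day 3. Without day 1 replicate 3 the day 1 change was 1.31.

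S100a6, or calcyclin, which binds Cacybp and annexins, had signals of 10230, 13663 and 10994 on day 0, 15000, 16963 and 12328 on day 1, and 13504, 14975 and 13475 on day 3. The ranges of all 3 days overlapped, with log2 changes of 0.34 ± 0.13 and 0.28 ± 0.13. The day 1 change was 0.47 without day 1 replicate 3, and it was then called.

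S100a10, the member that has lost calcium binding and holds Anxa2 at the plasma membrane, had signals of 13187, 18301 and 14369 on day 0. They were 18125, 19916 and 13136 on day 1 and 14457, 15549 and 15583 on day 3. The days overlapped, and the log2 changes were 0.15 ± 0.15 (0.33 without day 1 replicate 3) and 0.00 ± 0.15. Its probe sets did not move alike. The second bright one ranged from 11205 to 19800 over the 9 arrays. The dim one read 616, 570 and 602 on day 0 but 286, 366 and 332 on day 1. With the mean of the probe sets the day 1 change of S100a10 was -0.16.

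S100a13, which takes part in the release of Fgf1 and Il1a from stressed cells, had signals of 2921, 4748 and 4051 on day 0, 4334, 5504 and 2680 on day 1, and 2985, 2898 and 2540 on day 3. Its log2 changes were 0.06 ± 0.24 on day 1 (0.35 without day 1 replicate 3) and -0.45 ± 0.24 on day 3, and the ranges of day 0 and day 3 overlapped. S100a1, a regulator of calcium pumps and ryanodine receptors, had signals of 1346, 2130 and 1382 on day 0, 1522, 1945 and 942 on day 1, and 1019, 968 and 932 on day 3. Every mouse of day 3 lay below every mouse of day 0, with a log2 change of -0.70 ± 0.24. The dimmer probe set of S100a1 read 573, 457 and 522 on day 0 and 352, 272 and 336 on day 3, also without overlap. On day 1 this dimmer probe set changed by -0.01, with an absent call in replicate 3. By the brighter probe set the day 1 change of S100a1 was -0.17 ± 0.24 and took the opposite sign without day 1 replicate 3 (0.12). It was 0.09 when each array was centred on the median of all its probe sets, and was -0.05 when centred on the tested genes.

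Of the 7 measured genes 3 were called higher on day 1 at an adjusted p under 0.05 (limma, Benjamini-Hochberg over 11796 genes), where 10.7% of all genes were called higher. None was called lower, against 17.9% of all genes. On day 3 the same 3 genes, S100a8, S100a9 and S100a4, were called higher, against 13.6% of all genes, and none lower, against 12.5%. From day 1 to day 3, 2 genes, S100a8 and S100a9, were called lower, against 4.54% of all genes, and none higher, against 9.66%. In either direction the 3, 3 and 2 called genes stand beside 28.6%, 26.1% and 14.2% of all genes. By non-overlap of the mice, 3 genes were higher and none lower on day 1, beside 13.8% and 26.1% of all genes, and 3 were higher and 1 lower (S100a1) on day 3, beside 22.6% and 24.6%. From day 1 to day 3, none was higher and 2 were lower without overlap, beside 23.4% and 11.5%. The members were chosen on these values, so nothing is read from these counts. The median log2 change of the 7 genes was 0.34 on day 1 and 0.28 on day 3, beside -0.13 and -0.03 over all genes tested. When day 1 replicate 3 was left out, S100a1 (-0.82) and S100a13 (-0.80) were also called lower from day 1 to day 3, which made 4 genes, while the share of all genes called lower went from 4.54% to 8.48%. S100a6 was then also called higher on day 1, where 14.3% of all genes were, and S100a1 lower on day 3, where 15.4% were.

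**Figure D2:**
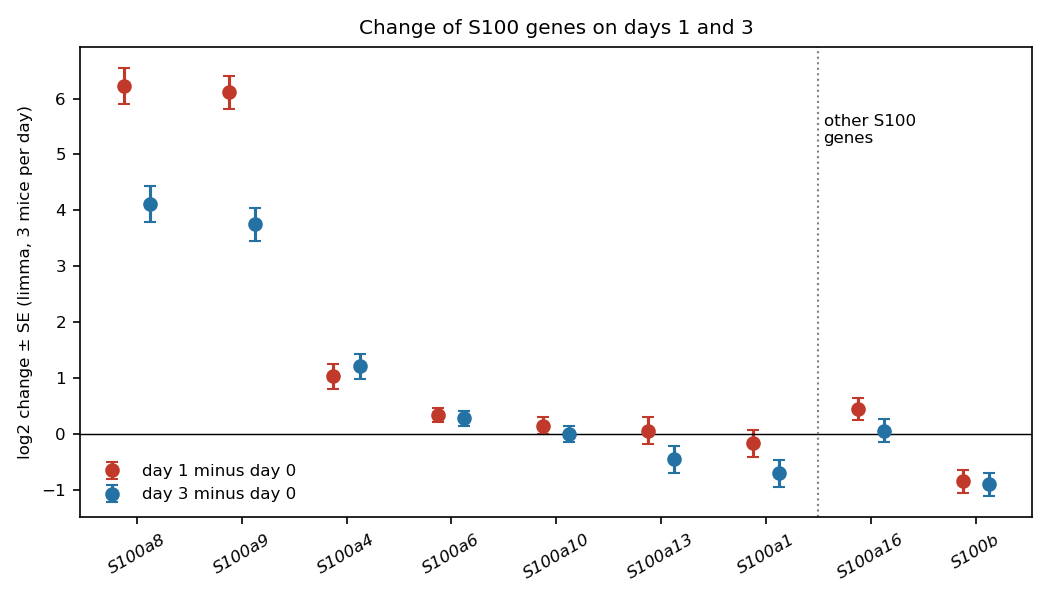
Log2 change against day 0 of the 7 measured S100 genes and of S100a16 and S100b, on day 1 and day 3, with SE from limma (3 mice per day). S100a8 and S100a9 stand at 6.22 and 6.11 on day 1, S100a4 near 1 on both days, and the others lie within 1 of 0.

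By the brightest probe set of each gene, the mice of a day differed in the same order for most of the family. On day 0 replicate 1 had the lowest and replicate 2 the highest signal in 7 of 7 genes, as against 36.4% and 35.1% of all genes. On day 1 replicate 3 was lowest in 7 of 7, as against 33.9% of all genes, by 0.25 (S100a6) to 0.60 (S100a8) below the mean of the day on the log2 scale, and replicate 2 was highest in 6 of 7, as against 29.2%. The second bright probe set of S100a10 had the same lowest and highest mice on both days, but the dim probe sets did not. On day 0 those of S100a1 (573, 457 and 522) and S100a10 (616, 570 and 602) were highest in replicate 1 and lowest in replicate 2. On day 1 that of S100a10 (286, 366 and 332) was lowest in replicate 1 and that of S100a1 (692, 526 and 371) in replicate 3. By the brightest probe sets the order on day 3 was mixed. The ratio of the actin control probe sets at the 3′ and 5′ ends is a measure of RNA length. It was 1.21, 1.26 and 1.23 on day 0 and 1.22, 1.32 and 1.20 on day 1. Its lowest and highest were in the same mice. On day 3 the ratio was 1.15, 1.19 and 1.18, lowest in replicate 1, while replicate 3 was lowest in 5 of 7 S100 genes. For the Gapdh control it was 0.54, 0.58 and 0.59 on day 0 and 0.67, 0.69 and 0.67 on day 1. The median log2 signal of the arrays was 6.93, 6.734 and 6.808 on day 0. It was 6.492, 6.515 and 6.685 on day 1 and 6.717, 6.7 and 6.767 on day 3. On each day this median was highest in the mouse where the most S100 genes were lowest. The cell type marker lists had no order common to all of them. On day 1 the summed signal of T cell markers (3 measured of 5) was 1784, 3893 and 4578, highest in replicate 3. That of monocyte markers was 53543, 54092 and 43259 and that of macrophage markers 66505, 59563 and 55036, both lowest in replicate 3. So were the sums of fibroblast and progenitor (128165, 131838 and 117861), neutrophil (9759, 7300 and 7146) and activated fibroblast markers (19904, 18359 and 17670). The adipocyte sum (513, 556 and 427) was lowest there too. The B cell sum (2578, 4459 and 5766) was highest in replicate 3, and the endothelial and dendritic sums (7416 and 8779) were lowest in replicate 1. On day 0 the T cell sum was 6887, 8138 and 6833, highest in replicate 2. The part of RNA length, of the array median and of these cells in the order of the S100 signals was not tested.

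**Figure D3:**
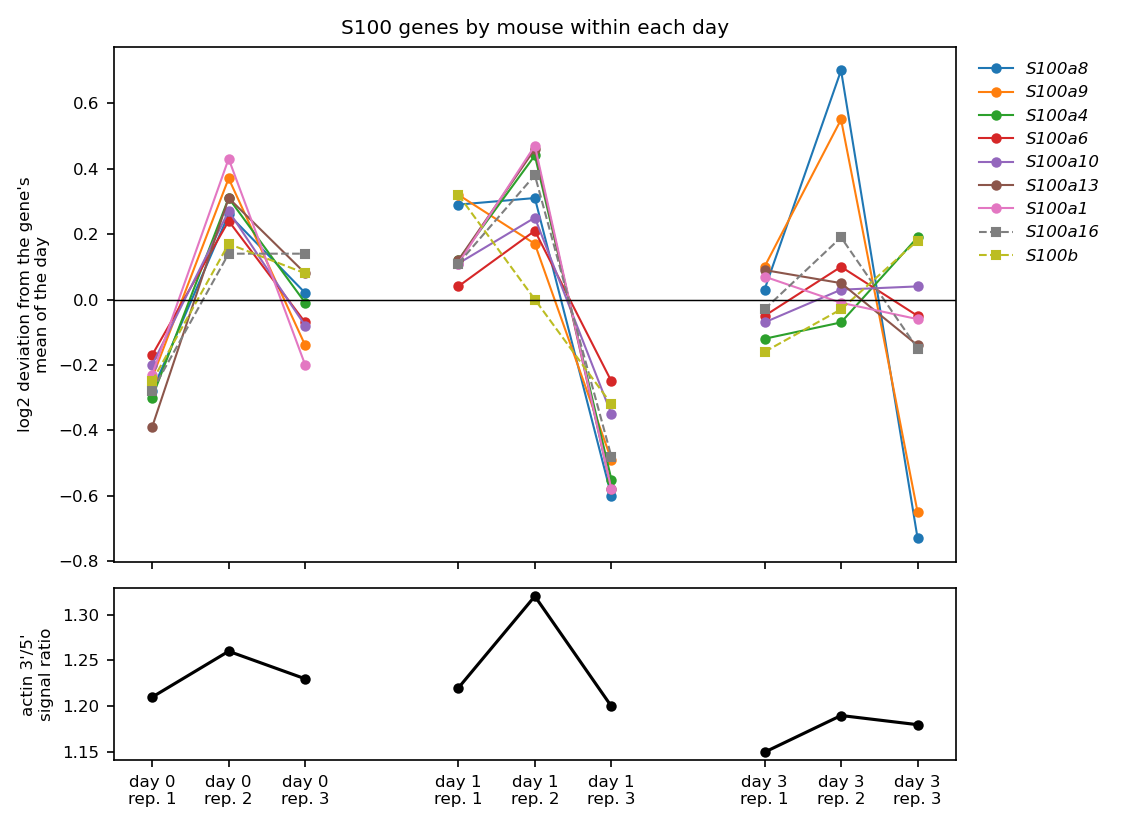
Upper panel, log2 deviation of each S100 gene, read from its brightest probe set, from its own mean of the day, by mouse (circles, listed genes; squares, S100a16 and S100b). Lower panel, ratio of the actin control signals at the 3′ and 5′ ends. On day 0 replicate 1 and on day 1 replicate 3 lie below the mean for every gene drawn, and these mice also have the lowest actin ratio of their day.

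The genes most like each changing member were sought by the root mean square difference, over the 9 arrays, of log2 signals taken relative to day 0, among 11795 other genes. For S100a8 they were S100a9 (0.24), the formyl peptide receptor Fpr2 (0.65) and Serpinb2 (0.73). For S100a9 they were S100a8 (0.24), Fpr2 (0.55) and Slfn4 (0.83). For S100a4 they were Nnmt (0.21), Ccne2 (0.22) and Cysltr1 (0.22).

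The summed signals of neutrophil and of monocyte markers were highest on day 1, as were S100a8 and S100a9. Of 12 neutrophil markers 6 were measured, and 5 of the 6 rose on day 1, where 10.7% of all genes did (limma, adjusted p from 1.13e-06 to 0.0452). The collagenase Mmp8 rose by 5.52 ± 0.70, the iron-binding Lcn2 by 5.05 ± 0.32 and the chemokine receptor Cxcr2 by 4.08 ± 0.26, while Mmp9 changed by 0.30 ± 0.23. The summed signal of the 6 was 1219 to 1377 on day 0, 7146 to 9759 on day 1 and 2722 to 4361 on day 3. The granule genes Camp and Elane had no present call on any array, and Ltf and Mpo had one on 2 arrays and 1 array. For 6 measured monocyte markers of 7 the summed signal was 11870 to 11934, then 43259 to 54092, then 21649 to 28771. On day 1 both sums were lowest in replicate 3, as was S100a8. On day 3 the neutrophil sum by mouse (3048, 4361 and 2722) had the order of the S100a8 signals. The monocyte sum (24381, 21649 and 28771) had the reverse order. Activated fibroblast markers (4 of 4) split on day 1, when Cthrc1 (2.45) and Tnc (1.42) rose and Postn (-0.68) and Acta2 (-0.37) fell. Their summed signal was 24672 to 26192 on day 0, 17670 to 19904 on day 1 and 37104 to 40783 on day 3, whereas their mean log2 signal lay above day 0 on both days, by 0.59 to 0.87 and by 2.14 to 2.41. The part of these cells in the S100 signals was not tested.

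**Figure D4:**
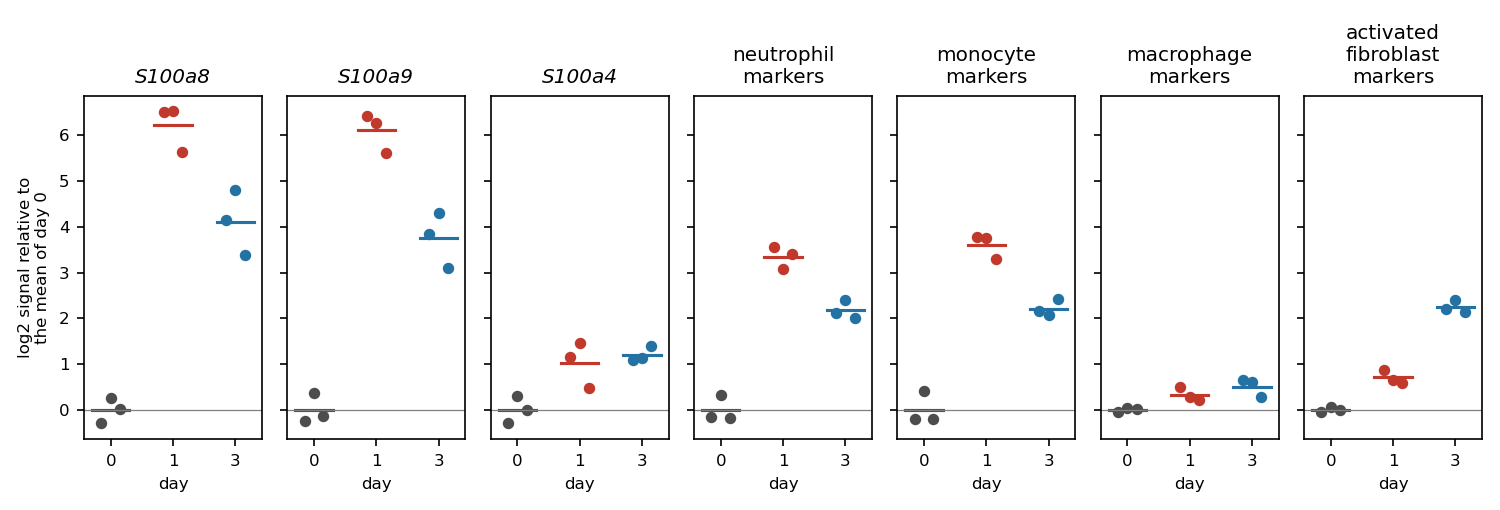
Log2 signal relative to the mean of day 0 for S100a8, S100a9 and S100a4, and mean over the measured markers of neutrophils (6), monocytes (6), macrophages (8) and activated fibroblasts (4), 1 point per mouse with bars at the mean of the day. Neutrophil and monocyte markers are highest on day 1, as are S100a8 and S100a9, and the mean of the activated fibroblast markers, of which 2 fell on day 1, is highest on day 3.

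Other S100 genes and the fused-type S100 genes of skin were mostly below detection. Of 15 listed, 3 were measured (S100a16, S100b and Rptn), and S100a3, S100a5, S100a14 and S100g had no present call. S100b, a protein of Schwann cells, had signals of 201, 267 and 252 on day 0, 165, 132 and 106 on day 1, and 115, 125 and 145 on day 3. It fell by 0.85 ± 0.21 on day 1 (limma, adjusted p = 0.0117) and by 0.90 ± 0.21 on day 3 (adjusted p = 0.00818), with no overlap of either day with day 0. The day 1 call was lost with quantile normalization (-0.59, adjusted p = 0.0917). S100a16 read 2307, 3077 and 3066, then 4125, 4966 and 2735, then 2853, 3316 and 2620, and its day 1 change of 0.45 ± 0.20 did not pass (adjusted p = 0.108). Without day 1 replicate 3 it was 0.70 and passed (adjusted p = 0.00558).

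Receptors that bind S100 proteins and their adaptors were examined next, in a list chosen with earlier results of these arrays known. Of 10 listed 9 were measured. On day 1, 6 rose and 1 fell, where 10.7% of all genes rose and 17.9% fell, and on day 3, 6 rose and 1 fell, where 13.6% rose and 12.5% fell. On day 1, 4 were called without day 0 replicate 1 (18.8% of all genes) or without day 1 replicate 1 (16.4%), and on day 3, 4 without day 3 replicate 2 (16%). Ager, the classical S100 receptor, had no present call on any array. Tlr4, the receptor of bacterial lipid A and of calprotectin, read 549, 865 and 592 on day 0, 2618, 2464 and 1605 on day 1, and 1483, 1257 and 1372 on day 3. It rose by 1.73 ± 0.21 on day 1 (limma, adjusted p = 0.000158) and 1.06 ± 0.21 on day 3 (adjusted p = 0.00344). Every mouse of both later days lay above day 0.

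The partners of Tlr4 at the cell surface moved the same way. Cd14, which hands ligands to Tlr4, rose by 1.15 ± 0.14 on day 1 (limma, adjusted p = 0.000229) and stayed higher on day 3 (0.92, adjusted p = 0.00085). Ly96 (MD-2), the chain of Tlr4 that holds the ligand, rose by 1.31 ± 0.27 (limma, adjusted p = 0.00489) and 0.84 (adjusted p = 0.0378), the second of which was lost when any of 6 single arrays was left out. Alcam, an adhesion protein bound by S100b, rose by 1.45 ± 0.20 and 1.16 (limma, adjusted p = 0.000393 and 0.00148). This was the largest change among its probe sets on both days. The others changed by 0.21 to 0.94 on day 1 and by 0.76 to 1.09 on day 3. The fatty acid receptor Cd36 fell by 0.37 ± 0.13 on day 1 (limma, adjusted p = 0.0447), a call lost with median centring (-0.11) and without day 1 replicate 3 (-0.22), among other alternatives. Ticam1, the adaptor of the endosomal branch, changed by 0.20 on day 1 and did not pass (limma, adjusted p = 0.413).

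Of 13 listed binding partners 11 were measured, with 2 higher and 1 lower on day 1 and 2 higher and none lower on day 3. These counts lie near or below the 28.6% and 26.1% of all genes called. On day 1, 5 were called without day 0 replicate 2 (27.3% of all genes) or without day 1 replicate 3 (38.6%). Il1a, a cytokine exported with S100a13, read 221, 476 and 435 on day 0, 10312, 3202 and 2932 on day 1, and 1190, 1541 and 1378 on day 3. It rose by 3.68 ± 0.42 on day 1 (limma, adjusted p = 0.000108) and by 1.93 on day 3 (adjusted p = 0.00617). Anxa2, the partner of S100a10, read 7106, 8942 and 8958, then 14614, 14753 and 13443, then 16817, 19560 and 17498. It rose by 0.78 ± 0.11 (limma, adjusted p = 0.00047) and 1.11 (adjusted p = 3.54e-05), while S100a10 itself had changes of 0.15 and 0.00.

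Myh9, the myosin bound by S100a4, read 11540, 9869 and 12185 on day 0, 7195, 7542 and 9362 on day 1, and 11643, 11905 and 11108 on day 3. It fell by 0.48 ± 0.12 on day 1 (limma, adjusted p = 0.0117), and the call was lost with median centring (-0.22) and without day 0 replicate 3 (-0.42). Anxa1, bound by S100a11, changed by 0.18 and 0.05, and Cacybp by 0.14 and -0.55, and none of these passed. Anxa1 passed on day 1 without day 1 replicate 3 (0.33, limma, adjusted p = 0.0217). Cacybp passed on day 3 with only the 6 arrays compared (limma, adjusted p = 0.0307) and with the replicate block (adjusted p = 0.0312).

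Transcription factors known to act on the calprotectin genes were measured for 7 of 8. On day 1, 3 rose (Spi1, Hif1a and Cebpb) and none fell, and on day 3, 3 rose (Spi1, Hif1a and Cebpa) and 1 fell (Cebpd), beside 28.6% and 26.1% of all genes called. On day 1, 5 were called without day 1 replicate 3, beside 38.6% of all genes. Spi1, which encodes PU.1, read 555, 570 and 551 on day 0, 1569, 984 and 1100 on day 1, and 1380, 1306 and 1301 on day 3. It rose by 1.09 ± 0.16 (limma, adjusted p = 0.000602) and 1.25 (adjusted p = 0.000204). Hif1a, the oxygen-regulated factor, rose by 0.85 ± 0.12 and 0.81 (limma, adjusted p = 0.000546 and 0.000648). Cebpa, a factor of granulocytes and adipocytes, rose by 0.77 ± 0.16 on day 3 (limma, adjusted p = 0.00539). Cebpb, a factor of acute inflammation, rose by 0.26 ± 0.08 on day 1 (limma, adjusted p = 0.0295). This call was lost with quantile normalization (0.19), with no filter, with no variance trend and with only the 6 arrays compared. It was also lost when any array of day 0, or day 1 replicate 1, was left out. Cebpd fell by 1.06 ± 0.19 on day 3 (limma, adjusted p = 0.00212). Myb changed by -0.82 ± 0.44 and Stat3 by 0.09 on day 1, and neither passed. Without day 1 replicate 3 Myb was at -1.34 and passed (limma, adjusted p = 0.0134).

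**Figure D5:**
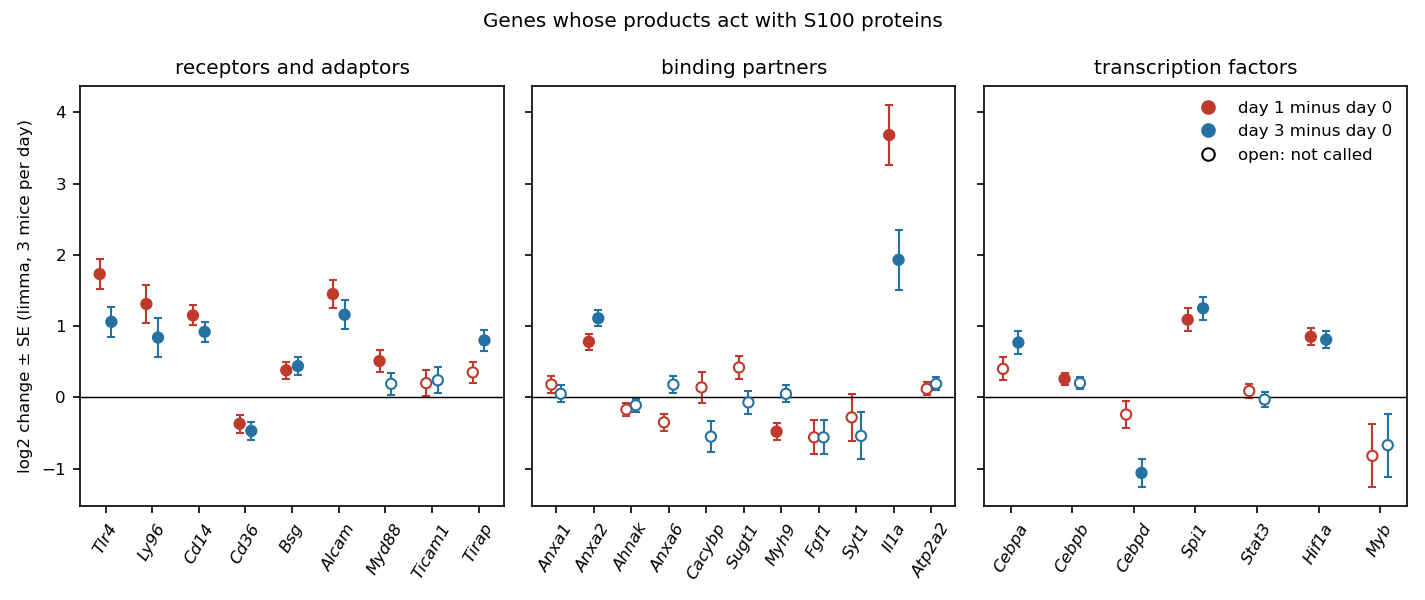
Log2 change against day 0 with SE (limma, 3 mice per day) for measured receptors and adaptors, binding partners and transcription factors. Filled points passed at an adjusted p under 0.05 and open points did not. Il1a has the largest change at 3.68 on day 1, and Cebpd is the lowest point among the transcription factors at -1.06 on day 3.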

How the data were processed

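RNA of SVFs from 9 mice was measured on Affymetrix Mouse430_2 arrays. The authors summarized probes with MAS5 (version not given in the sources used here) and deposited a linear signal intensity per probe set, a detection call (a category, not a score) and a detection p-value. Every array had been scaled by the authors to a mean of 500 after 2% was trimmed at each end, so a shift shared by all genes is removed. Symbols came from the platform annotation: 34945 probe sets had 1, 932 several and 9160 none. A probe set entered if the 3 mice of some day all had a present call for it, and each gene was read from its brightest one. Log2 signals, with no offset, were fitted with limma 3.58.1 (R 4.3.3; eBayes with a variance trend, 6 residual degrees of freedom), two-sided, with Benjamini-Hochberg adjustment over 11796 genes in each of 3 comparisons and a threshold of 0.05. The fit was tested on simulated data. The methods name a repeated-measurements ANOVA with a 2-fold limit. Each mouse gave 1 day, so this was an alternative.

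Named from the other lists were up to 4 called genes with the largest change on day 1 or 3 and up to 3 others. Cebpb and the lesser called genes were named after their values were seen. The members and lists were chosen with earlier results of these data known. Alternatives were quantile normalization, median centring, an offset of 16, other filters, other probe set rules, no variance trend, a replicate block, 6 arrays at a time and leaving out each array. Median centring over all probe sets was planned. Its result was seen, and centring over the tested genes alone was then added. Replicate numbers were not taken to pair the mice. Sequences were taken from RefSeq (GRCm38.p6).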

Additional observations from a re-analysis of the deposited data

Results flagged for a closer look

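The change on day 3 differed from that on day 1 for 4 genes of the S100 partner and factor lists. The test was limma, day 3 against day 1, with adjusted p over all genes, where 14.2% of all genes were called. Of 11 measured partners 2 were higher and 1 lower, and of 7 measured factors 1 was lower. No receptor (9 measured) and no other S100 gene (3 measured) was called. Il1a differed by -1.75 (adjusted p = 0.018), Cebpd by -0.83 (adjusted p = 0.0159), Myh9 by 0.53 (adjusted p = 0.0123) and Anxa6, a membrane-binding annexin, by 0.53 (adjusted p = 0.0165). The call of Il1a was lost without day 3 replicate 1 (-1.66) or replicate 2 (-1.84), and that of Myh9 without the same mice (0.53 and 0.51). That of Cebpd was lost without day 1 replicate 2 (-0.64) or day 3 replicate 3 (-0.65). That of Anxa6 was lost without day 1 replicate 2 (0.51) or day 3 replicate 2 (0.47). It was also lost with the mean of its probe sets (0.46) and with centring over the tested genes (0.41). With median centring over all probe sets Myh9 and Anxa6 stood at 0.37 and were not called.

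A signal was also present outside the comparisons, in the probe set 1460351_at that carries the symbols S100a11, S100a11-ps and Gm12854. It read 11367, 12354 and 12170 on day 0, 17963, 16621 and 14658 on day 1, and 16706, 17951 and 16744 on day 3, a log2 change of 0.45 on day 1 and 0.52 on day 3. Neither later day overlapped day 0. Which of the 3 transcripts gave the signal was not tested.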

How the results depend on the processing

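The median log2 change of the S100 members moved by less than 0.38, the median of the replicate SDs of the 7 genes, under every alternative that gives one, which the ANOVAs do not. Its largest day 1 value was 0.60 with median centring, and this was S100a6, whose own SD was 0.19. No called change of a gene in these lists reversed. The scaling mattered on day 1. The median of all genes went from -0.13 to 0.13 with median centring over all probe sets, as planned, and to -0.01 with centring over the tested genes, which was added after the planned centring had been seen. S100a6 then stood at 0.60 and S100a10 at 0.41 under the planned centring, against 0.46 and 0.27 under the added one. S100a6 was also called higher on day 1 with both centrings, with the replicate block (0.34) and without day 0 replicate 2 or day 1 replicate 3 (0.47 each). S100a1 was also called lower on day 3 with quantile normalization (-0.74) and, at -0.70, with the replicate block, the mean of probe sets, no shared probe sets, only the 6 arrays compared and without day 1 replicate 2 or 3. Counts called in either direction are given from here on. The share of all genes called also moved with the setting. In the main fit it was 28.6% on day 1, 26.1% on day 3 and 14.2% from day 1 to day 3. In the same order it was 6.38%, 7.29% and 3.77% with the one-way ANOVA and 5.91%, 6.73% and 3.54% with the repeated-measurements ANOVA. With only the 6 arrays compared it was 20%, 32.6% and 12.9%. With each array left out in turn it was 15.9% to 38.6%, 16% to 30.7% and 6.35% to 23.9%. On day 1 the other S100 genes went from 1 to 0 with quantile normalization, median centring and both ANOVAs. Quantile normalization called 24.6% and median centring 24.4% of all genes. Receptors went from 7 to 4 with only the 6 arrays compared and with both ANOVAs, and partners and transcription factors from 3 to 1 with both ANOVAs. On day 3 partners went from 2 to 1 without probe sets that can share transcripts (24.6% of all genes called). On that day both ANOVAs gave 2 receptors (from 7), 2 transcription factors (from 4) and 0 other S100 genes (from 1). From day 1 to day 3 receptors went from 0 to 1 with centring over the tested genes and an offset of 16. They did so too with presence on all 9 arrays, the mean of probe sets, the replicate block and only the 6 arrays compared. These settings called 12.6% to 15.1% of all genes. Members went from 2 to 1 without shared probe sets (12.7% of all genes called), since that of S100a8 was dropped. Both ANOVAs gave 1 partner (from 3) and 0 transcription factors (from 1). Leaving out each array in turn gave, on day 1, 1 to 2 other S100 genes, 4 to 6 receptors, 2 to 5 partners and 2 to 5 transcription factors. It gave 4 to 7 receptors on day 3. From day 1 to day 3 it gave 2 to 4 members, 0 to 1 other S100 genes, 0 to 2 receptors, 0 to 5 partners and 0 to 1 transcription factors. Same-numbered mice deviated together by correlations of -0.15 to 0.33. The labels do not say what mice of the same number share, and a shared batch was not tested. With the replicate block partners went from 3 to 5 from day 1 to day 3 (14.8% of all genes called). The cause of these moves was not tested.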
